A study of Mus musculus with 3 samples.

Results

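The genes described here encode the protein kinase mTOR and its complexes, the TSC, Rag and AMPK regulators that report nutrients and energy to it, and the PI3K and AKT kinases upstream and S6 kinases and 4E-BPs downstream. They were listed by name, 40 in all, and found in the deposited gene tables by symbol (16 genes) or by Ensembl ID (23 genes), so that 39 of the 31510 genes in the tables were members. Lamtor3 was not matched under its own symbol or ID and is not analysed here.

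The samples were mouse blastocysts in delayed implantation, a state in which the embryo stops growing in the uterus until maternal hormones resume it. The mothers were CD-1 mice of 2 months, ovariectomized on day 4 of pregnancy and given progesterone (2 mg per mouse) on days 5 to 7, which all 3 groups share. Dormant blastocysts received no estradiol (E2) and were flushed on day 8. Reactivating blastocysts were taken 6 h and reactivated blastocysts 12 h after the mothers received E2 on day 7. Each state was 1 library from over 3000 pooled blastocysts, sequenced as ribosome-depleted total RNA. There was thus no replicate, and state, day and hour of collection cannot be told apart.

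mTOR complex 1 (mTORC1) promotes protein synthesis and growth when amino acids, energy and growth factors are present, and mTOR complex 2 (mTORC2) acts on AKT and related kinases. Amino acids act through Rag GTPases on the lysosome, growth factors act through PI3K and AKT on the TSC complex, which restrains the GTPase Rheb, and low energy acts through AMPK. In mouse embryos, lowered mTOR activity is known to accompany and to induce a paused state like diapause. That activity is set by protein phosphorylation and location, which RNA levels do not measure. In these bulk libraries, fewer cells of a type and less RNA per cell cannot be told apart.

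The libraries held 9298675 exon reads in the dormant, 10364607 in the reactivating and 12941447 in the reactivated state. Mitochondrial and small RNA genes took 36.1%, 32.6% and 39.5% of these reads in the same order, which enters every RPKM through the library total. Trophectoderm markers summed to 1180, 1160 and 856 RPKM, epiblast markers to 116, 163 and 155 RPKM and primitive endoderm markers to 58.4, 54.6 and 44.4 RPKM, with all 13 markers above 1 RPKM in each library. Markers of uterine stroma, red blood cells and cumulus or oviduct were all below 1 RPKM. Of 6 uterine epithelium markers 4 reached 1 RPKM, with sums of 71.7, 72.6 and 29.1 RPKM, mostly from Lif and Wfdc2, and Ltf and Pgr were below 1 RPKM. Of 5 immune markers 3, 2 and 2 reached 1 RPKM, with sums of 19.1, 14.3 and 6.57 RPKM, mostly from Laptm5, and Tyrobp was listed at 0 in the reactivated library. The sums of both lists were lowest at 12 h, but their markers did not all move together. Of the uterine epithelium markers, Lif, Wfdc2, Muc1 and Pgr were lowest at 12 h, while Foxa2 and Ltf were highest there. Of the immune markers, Laptm5 and Tyrobp were lowest at 12 h, Cd68 and Csf1r at 6 h and Ptprc in dormant blastocysts. The sums thus do not show that all RNA of these cell types was lowest at 12 h. The part of either list in the differences below was not tested.

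The first result is that RNA of all 39 members was detected in the dormant embryo. All 39 members had at least 1 RPKM (RPKM, exon reads scaled to exon length and to the read total of the library) in each library. Over all genes, 12126 of 31510 reached 1 RPKM in the dormant or the reactivating library. Of 60 other genes of the pathway, listed separately below, 53 reached it in at least 1 library. Both counts use a looser condition than that for the members. The share of all genes in the dormant library alone is not given here. The members' levels ran from 2.53 RPKM for Nprl3 to 47.4 RPKM for Prkab1 in dormant blastocysts, with a median of 9.16 RPKM. In reactivating blastocysts they ran from 2.21 RPKM for Deptor to 55.4 RPKM for Rraga (median 8.69), and in reactivated blastocysts from 1.11 RPKM for Deptor to 46.2 RPKM for Rraga (median 6.63). Rraga and Akt1 were among the 4 most abundant members in each library, together with Prkab1 and Rragd in dormant and reactivating blastocysts and with Fnip2 and Rheb in reactivated ones.

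**Figure D1:**
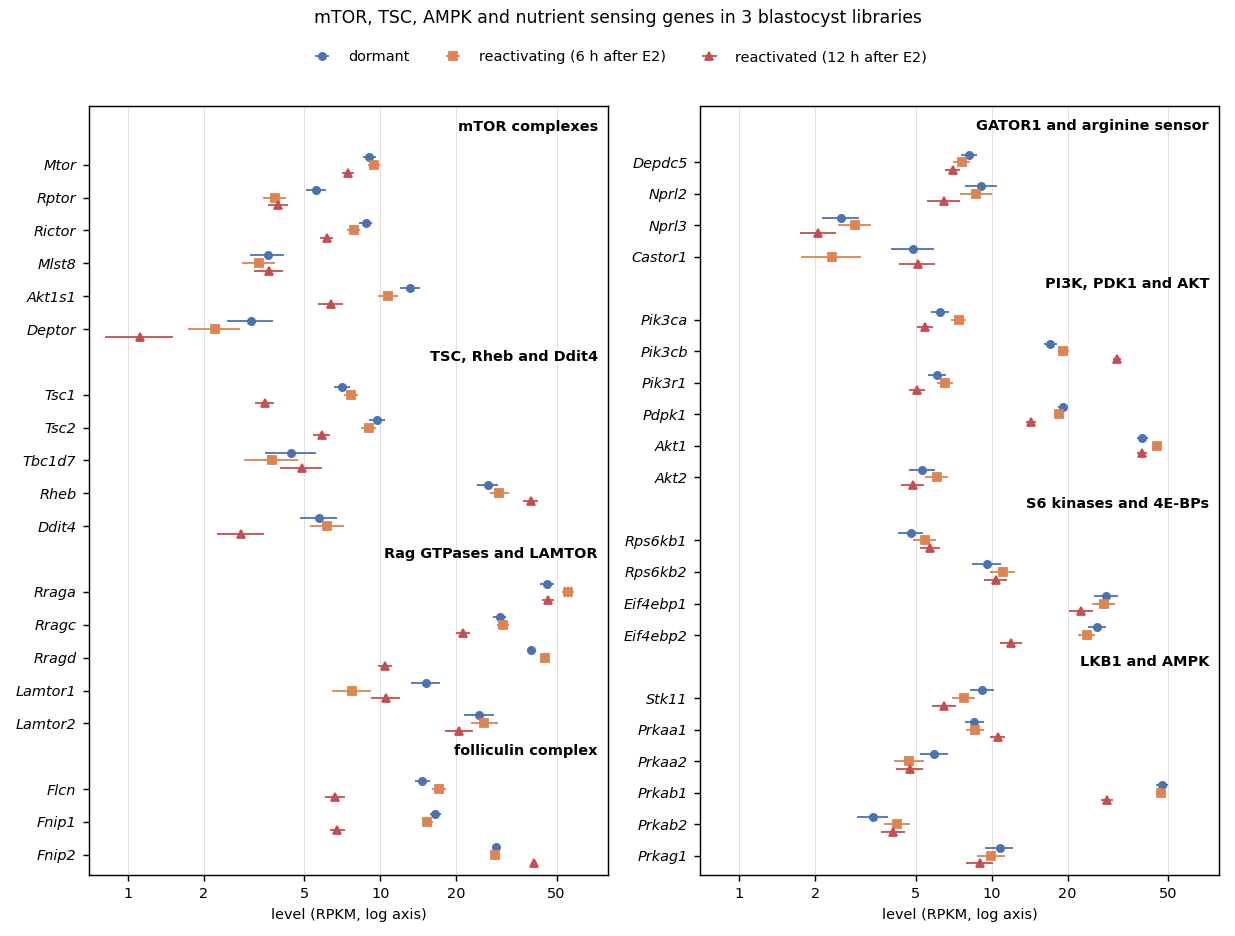
Level of each of the 39 members in RPKM on a log axis, grouped by role; circles are the dormant, squares the reactivating (6 h) and triangles the reactivated (12 h) library, and bars are 95% Poisson intervals of the exon reads. For most members circle and square lie close together and the triangle lies to their left, farthest for Rragd at 39.6, 44.8 and 10.4 RPKM, while Pik3cb, Rheb and Fnip2 have the triangle on the right.

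A difference was computed as log2 of (RPKM + 1) in one library over (RPKM + 1) in the other, and a gene was called higher or lower at a size of at least 1 (2 times) where the higher library reached 1 RPKM. At 6 h no member was called higher (2.68% of the 12126 genes tested were) and no member was called lower (3.07% were). The members' median log2 difference was -0.01, against 0.06 over all genes tested, and 37 of 39 lay within 0.5 of 0, which is 94.9%, against 81.7% of all genes. At 12 h against dormant, 4 of 39 members (10.3%) were called lower, Rragd, Fnip1, Eif4ebp2 and Flcn, against 7.66% of the 12037 genes tested. None was called higher, against 5.27% of all genes. The members' median was -0.25, against -0.075 over all genes, and 28 of 39 (71.8%) lay below 0, against 54.7%. At 12 h against 6 h, Rragd, Flcn and Fnip1 were called lower (3 of 39, 7.69%, against 7.63% of 12065 genes), and none was called higher (3.82% of all genes). The comparisons share libraries and are not independent. The members' median at 12 h against 6 h was -0.28, against -0.13 over all genes. As a list, the members were called lower at about the rate of other genes.

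**Figure D2:**
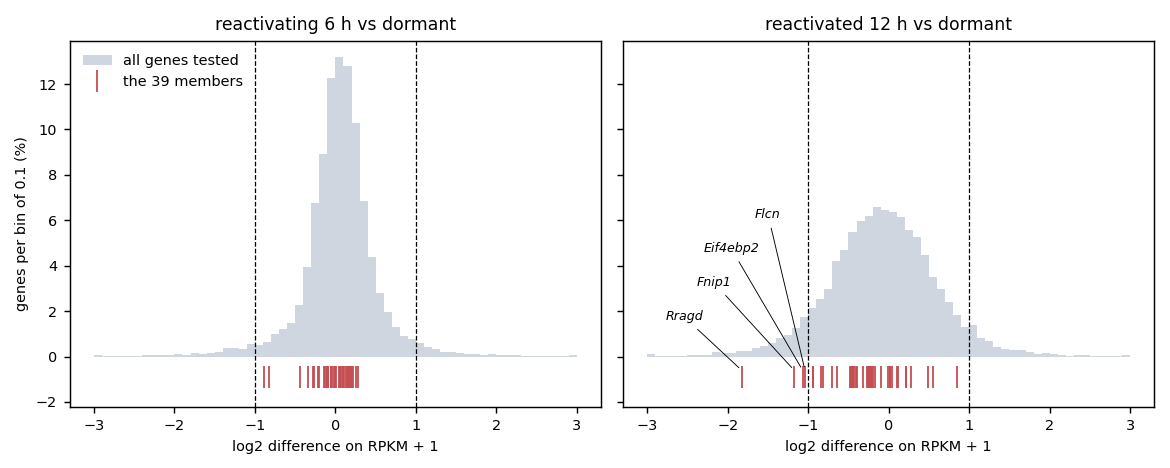
Distribution of log2 differences on RPKM + 1 over all genes tested (grey, percent of genes per bin of 0.1, with values beyond 3 placed in the end bins) and the 39 members (red ticks) for reactivating 6 h against dormant (left) and reactivated 12 h against dormant (right); dashed lines mark the size rule at 1 and -1. No tick passes a line on the left, and on the right Rragd, Fnip1, Eif4ebp2 and Flcn pass the lower line.

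The members called lower at 12 h included the Rag GTPase RagD and both Flcn and Fnip1 of the folliculin complex, which acts on RagC and RagD at the lysosome and through them controls the location of the transcription factors TFEB and TFE3. Rragd (ENSMUSG00000028278, GRCm38 chromosome 4, 32983037 to 33022180, plus strand) had 39.6 RPKM (95% Poisson interval 38.2 to 41.1) in dormant blastocysts, 44.8 RPKM (43.4 to 46.3) at 6 h and 10.4 RPKM (9.81 to 11.1) at 12 h, from 2901, 3649 and 1028 exon reads. It was thus high in the first 2 states and low in the third, and its intervals at 12 h lie far from both. It fell by 1.83 on the log2 scale at 12 h against dormant, with a ratio of library-scaled exon reads of 0.264 (exact 95% binomial interval 0.245 to 0.283), and by 2.00 against 6 h. All intervals cover counting error only, since reads are not independent molecules and no replicate exists.

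Flcn, which encodes folliculin (ENSMUSG00000032633, chromosome 11, 59791408 to 59810016, minus strand), had 14.7 RPKM (13.7 to 15.8) in dormant blastocysts, 17.1 RPKM (16.0 to 18.2) at 6 h and 6.63 RPKM (6.03 to 7.27) at 12 h. Its partner Fnip1, a folliculin-interacting protein that also binds AMPK (ENSMUSG00000035992, chromosome 11, 54438199 to 54518235, plus strand), had 16.5 RPKM (15.7 to 17.4), 15.4 RPKM (14.6 to 16.1) and 6.76 RPKM (6.30 to 7.24) in the same order. Both were lowest at 12 h, with no overlap with the other states. The exon read ratio of reactivated over dormant was 0.451 (0.401 to 0.508) for Flcn and 0.409 (0.375 to 0.446) for Fnip1, and the log2 differences were -1.04 and -1.17. With median-ratio scaling Flcn was at -0.96 and was no longer called. Fnip1 at 12 h against 6 h, at -1.08, was not called with upper-quartile (-0.98), median-ratio (-0.93) or non-mitochondrial scaling (-0.98).

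Fnip2, the other folliculin-interacting protein, did not follow its relative. It had 28.7 RPKM (27.6 to 29.9) in dormant blastocysts, 28.5 RPKM (27.4 to 29.6) at 6 h and 40.8 RPKM (39.6 to 41.9) at 12 h, so that its interval at 12 h lay above the others. Its log2 difference at 12 h against dormant, 0.49, did not pass the size rule. Its exon ratio of 1.42 (1.35 to 1.49) was matched in introns (1.52, 1.37 to 1.69) but not in reads across exon junctions, where the ratio was 0.790 (0.651 to 0.958).

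Eif4ebp2, a repressor of cap-dependent translation that mTORC1 inactivates (ENSMUSG00000020091, chromosome 10, 61428491 to 61452661, minus strand), was the remaining member called lower. It had 26.2 RPKM (24.2 to 28.3) in dormant blastocysts, 23.9 RPKM (22.1 to 25.8) at 6 h and 11.9 RPKM (10.8 to 13.2) at 12 h, with only the last apart from the others. The ratio of reactivated over dormant was 0.456 (0.402 to 0.518), and the log2 difference of -1.07 became -0.98 with median-ratio scaling, which is not called. Its relative Eif4ebp1 had 28.5, 27.8 and 22.7 RPKM in the same order, a log2 difference of -0.32 at 12 h against dormant.

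The promoters of these 4 genes are shown because the genes were called together at 12 h. Each is the 250 bases before the RefSeq transcription start (GRCm38.p6), written 5′ to 3′ on the strand of the gene. Capitals mark CACGTG, the E box core that TFE and MYC family factors bind and that is its own reverse complement.
Rragd, chr4:32982748-32982997, plus strand: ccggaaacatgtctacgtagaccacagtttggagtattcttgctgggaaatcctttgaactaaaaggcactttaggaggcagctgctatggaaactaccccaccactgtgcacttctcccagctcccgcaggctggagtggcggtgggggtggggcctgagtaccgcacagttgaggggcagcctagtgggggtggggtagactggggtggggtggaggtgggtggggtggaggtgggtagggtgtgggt
Flcn, chr11:59810040-59810289, minus strand: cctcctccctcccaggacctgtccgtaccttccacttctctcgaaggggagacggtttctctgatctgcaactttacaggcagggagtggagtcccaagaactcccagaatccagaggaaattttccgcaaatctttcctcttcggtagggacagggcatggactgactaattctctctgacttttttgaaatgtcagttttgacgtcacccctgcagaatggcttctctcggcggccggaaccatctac
Fnip1, chr11:54437929-54438178, plus strand: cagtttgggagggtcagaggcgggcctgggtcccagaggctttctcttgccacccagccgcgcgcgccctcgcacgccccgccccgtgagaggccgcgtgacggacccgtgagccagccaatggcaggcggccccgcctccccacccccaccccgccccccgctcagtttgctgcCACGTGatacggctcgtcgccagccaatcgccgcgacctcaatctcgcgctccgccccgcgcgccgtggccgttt
Eif4ebp2, chr10:61452670-61452919, minus strand: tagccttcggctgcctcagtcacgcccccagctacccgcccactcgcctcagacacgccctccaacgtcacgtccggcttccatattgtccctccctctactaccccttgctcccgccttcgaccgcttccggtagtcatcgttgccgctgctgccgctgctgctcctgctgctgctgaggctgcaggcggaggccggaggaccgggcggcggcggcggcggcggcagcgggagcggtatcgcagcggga
They differ in base composition, with 59.6% G and C and 5 CpG dinucleotides for Rragd and 52.0% and 9 for Flcn, but 73.6% and 32 for Fnip1 and 70.0% and 28 for Eif4ebp2. Over all 32851 promoters of the table the medians were 52.4% and 6, and over the 42 promoters of members 60.8% and 18.5. CACGTG itself holds a CpG. In the 300-base windows that also hold the first 50 transcribed bases, CACGTG was found in 5 of 42 member promoters (11.9%), which belong to 36 of the members, and in 7.15% of all promoters. The longer CLEAR-type E box TCACGTGA was in none of the 42 and in 0.974% of all, and the ATF4 composite element TGATGCAA, with its reverse complement TTGCATCA, in none and in 0.895%. Eif4ebp1, Deptor, Rps6kb2 and Lamtor3 had no entry.

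The other 4 members with the E box core are shown with 20 bases on each side, and the site begins 112 bases before the start in Rragc, 96 in Rheb, 68 in Lamtor1 and 53 in Tbc1d7, against 75 in Fnip1.
Rragc, chr4:123917301-123917346, plus strand: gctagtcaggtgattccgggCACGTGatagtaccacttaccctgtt
Rheb, chr5:24842432-24842477, minus strand: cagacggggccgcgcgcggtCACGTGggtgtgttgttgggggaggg
Lamtor1, chr7:101905749-101905794, plus strand: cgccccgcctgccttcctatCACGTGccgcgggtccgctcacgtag
Tbc1d7, chr13:43171529-43171574, minus strand: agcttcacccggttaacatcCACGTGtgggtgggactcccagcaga
These 5 members had unlike values at 12 h against dormant, with log2 differences of -1.17 for Fnip1, -0.49 for Lamtor1, -0.46 for Rragc, 0.11 for Tbc1d7 and 0.55 for Rheb.

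Among the remaining Rag and LAMTOR genes, which anchor mTORC1 to the lysosome, none passed the size rule. Rraga, which has no intron, had 45.7 RPKM (42.9 to 48.6) in dormant blastocysts, 55.4 RPKM (52.5 to 58.5) at 6 h and 46.2 RPKM (43.8 to 48.7) at 12 h. Rragc had 29.7 RPKM (27.9 to 31.5), 30.7 RPKM (29.0 to 32.4) and 21.3 RPKM (20 to 22.6) in the same order. RagA and RagC RNA thus stayed within 2 times between any of the libraries. Lamtor1, the subunit that ties the scaffold to the lysosome membrane, had 15.1 RPKM (13.2 to 17.2), 7.70 RPKM (6.43 to 9.15) and 10.5 RPKM (9.17 to 12.0), so that 6 h was its lowest state. Its log2 difference of -0.89 at 6 h rests on 130 exon reads against 230 in dormant. Across junctions it had 44, 25 and 17 reads, with 12 h lowest. Its row in the tables carries a second symbol. Whether other loci share its reads was not tested, and its values are uncertain. Lamtor2 had 24.6, 25.9 and 20.5 RPKM with overlapping intervals.

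No gene of the mTOR complexes passed the size rule. Of the 6, 5 had intervals at 12 h below the dormant ones, against 31.6% of all genes tested. The members had more reads than most genes, which makes intervals part more often. Mtor (ENSMUSG00000028991, chromosome 4, 148448611 to 148557683) had 9.03 RPKM (8.51 to 9.57) in dormant blastocysts, 9.44 RPKM (8.94 to 9.97) at 6 h and 7.46 RPKM (7.05 to 7.88) at 12 h. The intervals of dormant and reactivating overlap and that of reactivated lies below both, at a log2 difference of -0.25 against dormant. Rptor, the mTORC1 scaffold, had 5.56, 3.82 and 3.94 RPKM, and Rictor, its counterpart in mTORC2, had 8.76, 7.83 and 6.12 RPKM. Mlst8, shared by both complexes, had 3.57, 3.29 and 3.62 RPKM, with all 3 intervals overlapping.

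Both inhibitory partners lay just short of the size rule at 12 h. Akt1s1 (PRAS40, an mTORC1 inhibitor that AKT phosphorylates) had 13.2 RPKM (12.0 to 14.4) in dormant blastocysts, 10.8 RPKM (9.76 to 11.8) at 6 h and 6.35 RPKM (5.65 to 7.11) at 12 h, a log2 difference of -0.95 against dormant. Deptor had 3.06 RPKM (2.46 to 3.77), 2.21 RPKM (1.73 to 2.78) and 1.11 RPKM (0.809 to 1.5), a difference of -0.94 from 44 exon reads against 90. The reactivated library was the lowest for both and did not overlap with dormant. With a pseudocount of 0.1 in place of 1, both were called lower, at -1.04 and -1.38. For Akt1s1, however, junction reads numbered 54, 91 and 69 and gave a ratio of 0.937 (0.647 to 1.36) at 12 h over dormant, while its exon reads gave 0.482 (0.416 to 0.559).

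The TSC complex turns Rheb off. At 12 h Tsc1 and Tsc2 lay below and Rheb above their dormant levels. Tsc1 had 7.06 RPKM (6.57 to 7.58) in dormant blastocysts, 7.64 RPKM (7.15 to 8.14) at 6 h and 3.48 RPKM (3.18 to 3.80) at 12 h. Tsc2 had 9.69 RPKM (9.05 to 10.4), 8.99 RPKM (8.41 to 9.60) and 5.86 RPKM (5.43 to 6.31). Rheb had 26.7 RPKM (24.2 to 29.3), 29.7 RPKM (27.2 to 32.3) and 39.5 RPKM (36.9 to 42.3). In each case the interval at 12 h was apart from the other states, at log2 differences from dormant of -0.85 for Tsc1, -0.64 for Tsc2 and 0.55 for Rheb, none of them past the size rule. Tbc1d7, the third TSC subunit, had 4.43, 3.72 and 4.88 RPKM with overlapping intervals. Ddit4 (REDD1), a stress-induced activator of TSC, had 5.72 RPKM (4.80 to 6.76), 6.17 RPKM (5.26 to 7.19) and 2.81 RPKM (2.26 to 3.46), with 12 h lowest at -0.82 against dormant.

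No subunit of GATOR1, which turns Rag GTPases off when amino acids are scarce, passed the size rule. Its subunits Depdc5, Nprl2 and Nprl3 had log2 differences of -0.19, -0.43 and -0.21 at 12 h against dormant. Depdc5 had 6.51 to 7.5 RPKM at 12 h, below its dormant interval of 7.53 to 8.77. Nprl2 had 5.55 to 7.52 RPKM, below 7.83 to 10.5, and the intervals of Nprl3 overlapped. Over all genes tested, 31.6% lay apart on the lower side. Castor1, an arginine sensor of mTORC1, was lowest at 6 h, with 4.90 RPKM (4.01 to 5.93) in dormant blastocysts, 2.33 RPKM (1.76 to 3.03) at 6 h and 5.09 RPKM (4.31 to 5.98) at 12 h. Only the middle library stood apart. These values rest on 106, 56 and 148 exon reads and, across junctions, on 26, 3 and 23 reads. The log2 difference of -0.83 at 6 h against dormant became -1.04, which is called, with a pseudocount of 0.1, and the 0.87 at 12 h against 6 h became 1.09.

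In the PI3K and AKT branch, Pik3cb, a catalytic subunit of PI3K, was the member with the greatest positive difference at 12 h against dormant. It had 17.1 RPKM (16.1 to 18.1) in dormant blastocysts, 19.3 RPKM (18.3 to 20.3) at 6 h and 31.4 RPKM (30.3 to 32.6) at 12 h, a log2 difference of 0.84 at 12 h against dormant that did not pass the rule. Pik3ca, the other catalytic subunit on the list, had 6.24, 7.40 and 5.43 RPKM. At 12 h the interval of Pik3cb lay above its dormant one and that of Pik3ca (5.04 to 5.86) overlapped with it (5.74 to 6.76). Pik3r1, the regulatory subunit p85alpha, had 6.09, 6.56 and 5.07 RPKM, and Pdpk1, the kinase that activates AKT and S6 kinases, had 19.3, 18.4 and 14.4 RPKM. Akt1 had 39.6 RPKM (37.6 to 41.6), 45.2 RPKM (43.2 to 47.3) and 39.5 RPKM (37.8 to 41.2), and Akt2 had 5.30, 6.06 and 4.87 RPKM. For both AKT genes the dormant and reactivated intervals overlapped.

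The S6 kinases, which mTORC1 activates, had log2 differences of 0.21 for Rps6kb1 and 0.10 for Rps6kb2 at 12 h against dormant. Rps6kb1 had 4.79 RPKM (4.26 to 5.37) in dormant blastocysts, 5.44 RPKM (4.89 to 6.02) at 6 h and 5.71 RPKM (5.20 to 6.25) at 12 h, and Rps6kb2 had 9.59 RPKM (8.40 to 10.9), 11.1 RPKM (9.85 to 12.4) and 10.4 RPKM (9.29 to 11.5). All intervals of each gene overlapped.

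No AMPK gene passed the size rule in any comparison. Prkab1, a regulatory subunit of AMPK, had 47.4 RPKM (45 to 49.9) in dormant blastocysts, 47.0 RPKM (44.7 to 49.3) at 6 h and 28.8 RPKM (27.1 to 30.4) at 12 h, a log2 difference of -0.70 at 12 h against dormant with no overlap. The catalytic subunits went different ways. Prkaa1 had 8.55 RPKM (7.86 to 9.29), 8.59 RPKM (7.93 to 9.29) and 10.6 RPKM (9.90 to 11.3), while Prkaa2 had 5.93 RPKM (5.20 to 6.74), 4.71 RPKM (4.09 to 5.39) and 4.73 RPKM (4.17 to 5.35). Stk11 (LKB1), the kinase that activates AMPK, had 9.16 RPKM (8.23 to 10.2), 7.76 RPKM (6.96 to 8.63) and 6.49 RPKM (5.82 to 7.21). Only Prkaa1 of the 3 kinases was highest at 12 h. Prkab2 had 3.39, 4.22 and 4.08 RPKM and Prkag1 had 10.8, 9.96 and 8.97 RPKM.

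Intervals did not overlap between reactivated and dormant for 21 members on the lower side (53.8%, against 31.6% of all genes tested) and for 4 on the higher side (10.3%, against 24.5%), namely Fnip2, Pik3cb, Prkaa1 and Rheb. How often intervals part depends on the number of reads, and the members had a median of 466 exon reads in the reactivated and 489 in the dormant library, against 264 and 212 over all genes tested. At 6 h against dormant, 6 members (15.4%) lay apart on the higher side, against 19.1% of all genes, and 4 (10.3%) on the lower side, against 10.7%. The 6 were Akt1, Flcn, Pik3ca, Pik3cb, Rraga and Rragd, and the 4 were Akt1s1, Castor1, Lamtor1 and Rptor.

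Related genes can be compared within a library, where the library total cancels. Of the 8 pairs of related genes among the members, the share of the first in the summed RPKM moved most for folliculin-interacting proteins and Rag GTPases. Fnip1 made up 36.5% of Fnip1 and Fnip2 in dormant blastocysts, 35.0% at 6 h and 14.2% at 12 h. The ratio of Fnip1 to Fnip2 at 12 h was 0.288 times that in dormant blastocysts (exact conditional 95% interval 0.261 to 0.319). Shares and ratios of all pairs rest on exon reads. In junction reads at 12 h over dormant, Fnip2 lay below 1, at 0.790 (0.651 to 0.958), beside an exon ratio of 1.42. Fnip1 was at 0.306 (0.234 to 0.397) in junction reads. Rragd made up 57.2%, 59.4% and 32.9% of Rragd and Rragc, and its ratio to Rragc was 0.368 times the dormant one (0.329 to 0.412). RagD RNA was thus the larger of the 2 in the first 2 states and the smaller at 12 h.

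Among the other pairs, the ratio at 12 h over that in dormant was 2.11 (1.85 to 2.41) for Pik3cb to Pik3ca and 1.55 (1.25 to 1.91) for Prkaa1 to Prkaa2. It was 0.574 (0.469 to 0.702) for Eif4ebp2 to Eif4ebp1 and 0.504 (0.414 to 0.612) for Prkab1 to Prkab2. Intervals included 1 for Akt1 to Akt2, at 1.09 (0.914 to 1.29), and for Rps6kb1 to Rps6kb2, at 1.10 (0.877 to 1.38). At 6 h all 8 ratios lay between 0.796 and 1.27 times the dormant ones, and the interval left out 1 for Prkaa1 to Prkaa2 (1.27, 1.01 to 1.58) and Prkab1 to Prkab2 (0.796, 0.652 to 0.970). At 12 h it left out 1 for 6 of the 8, but the share over other gene pairs was not computed. For single genes, intervals parted between reactivated and dormant for 24.5% of all genes on the higher side and 31.6% on the lower side. The pair comparison was added after the values were seen.

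**Figure D3:**
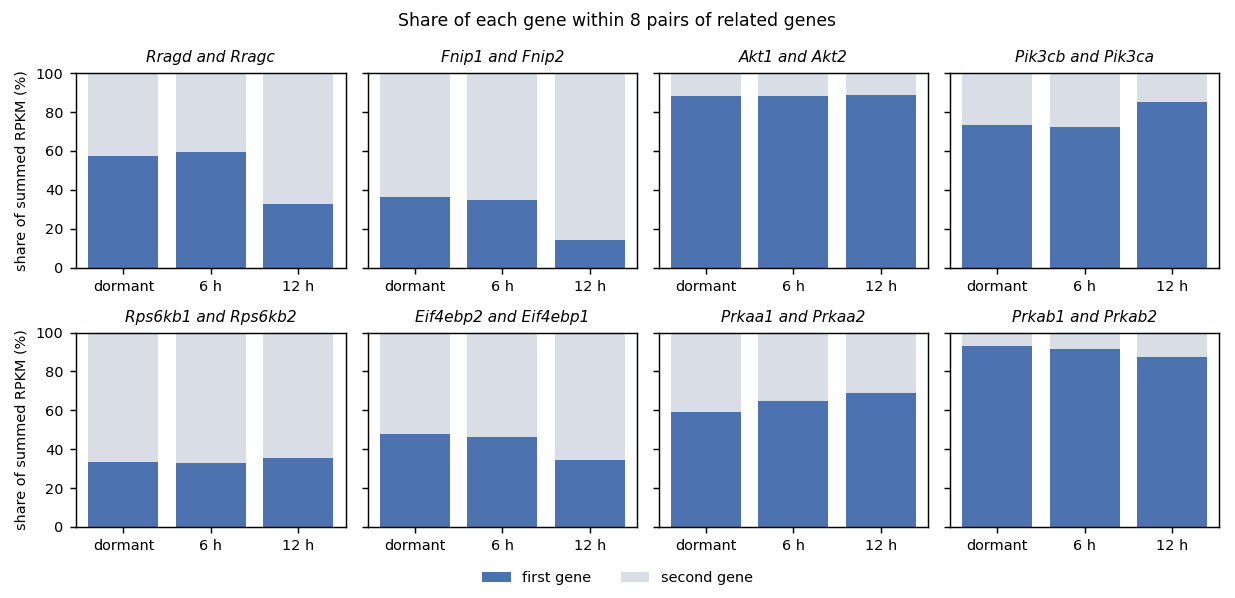
Share of each gene in the summed RPKM of 8 pairs of related members in the dormant, reactivating (6 h) and reactivated (12 h) library, in percent; the dark bar is the first gene named above each panel and the light bar the second. The dark share of Fnip1 goes through 36.5%, 35.0% and 14.2% and that of Rragd through 57.2%, 59.4% and 32.9%, while those of Akt1 and Rps6kb1 stay nearly level.

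Reads in introns, which can come from RNA not yet spliced, gave a second readout of the same genes. They can also come from other genes on the same strand. In the GENCODE M21 annotation, same-strand genes with exons apart overlap Fnip1, Fnip2, Eif4ebp2, Pdpk1, Pik3r1, Mtor and Rptor, among others. Their part in the intron reads was not tested. At 12 h over dormant, with at least 20 intron reads in a library, the interval of the intron ratio lay below 1 for 16 of 34 members (47.1%, against 28.3% of 12159 genes) and above 1 for 3 (8.82%, against 22.9%). The members had a median of 206 intron reads in the reactivated and 210 in the dormant library, against 105 and 81 over all genes. Intron reads took 23.5% of gene reads in the reactivated and 27.7% in the dormant library, and over intron reads alone the count above 1 was 7. The share of all genes over intron reads alone is not given here.

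For Rragd, intron reads numbered 372 in dormant blastocysts, 561 at 6 h and 143 at 12 h, and the ratio of reactivated over dormant was 0.292 (0.239 to 0.355), close to its exon ratio of 0.264. Fnip1 and Eif4ebp2 had intron ratios of 0.543 (0.475 to 0.621) and 0.559 (0.475 to 0.656), also below 1. Flcn differed from these, as did Akt1s1, whose intron ratio was 1.52 (1.01 to 2.32). Intron reads of Flcn numbered 178, 288 and 245 in the same order, an intron ratio of 1.05 (0.858 to 1.28) beside an exon ratio of 0.451. The greatest difference the other way was in Pik3r1, with 589, 506 and 295 intron reads, a ratio of 0.380 (0.330 to 0.438) beside an exon ratio of 0.832 (0.745 to 0.931). Pik3cb and Rheb, whose exon ratios were 1.84 and 1.48, had intron ratios of 0.899 (0.831 to 0.972) and 0.842 (0.730 to 0.973).

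**Figure D4:**
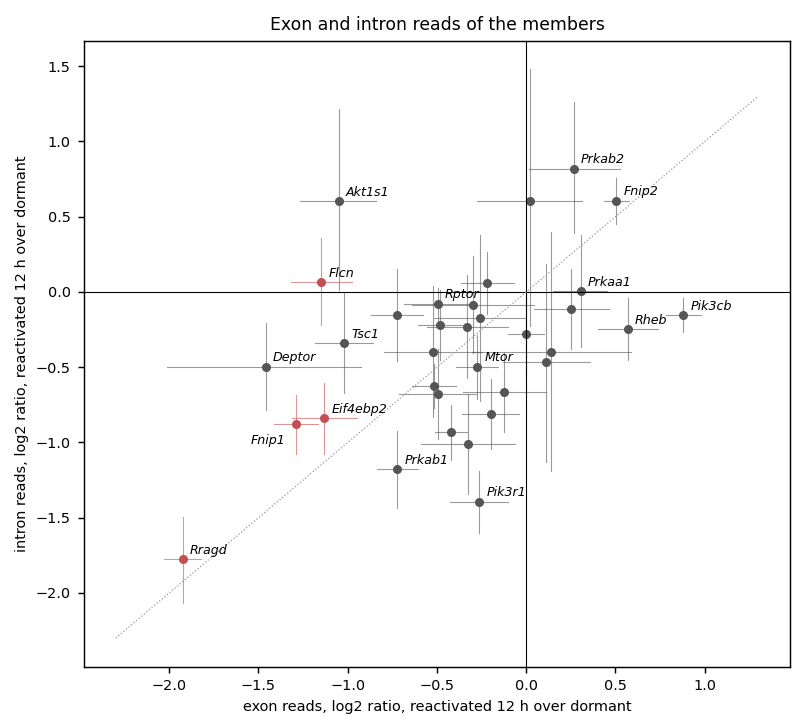
Log2 ratio of reactivated 12 h over dormant in exon reads (horizontal) and intron reads (vertical), each scaled to its library, for the 34 members with at least 20 intron reads in 1 of the 2 libraries; lines are exact 95% intervals, the dotted line marks equal ratios and red points are members called lower on RPKM. Rragd lies near the dotted line at the lower left, Flcn lies near 0 on the vertical axis, and Pik3cb and Rheb lie right of 0 with intron ratios below 1.

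Other genes of the pathway were taken from a separate list of 61, of which 60 were in the tables and 53 could be tested at 12 h against dormant. Of these 53, 4 (7.55%, against 7.66% of all genes) were called lower, Pdcd4, Tfeb, Ulk1 and Rps6, and Pik3c2a (1.89%, against 5.27%) was called higher. Their median log2 difference was -0.26, beside -0.25 for the members. At 6 h none of 53 was called higher or lower, against 2.68% and 3.07% of all genes. Of 52 tested at 12 h against 6 h, Pdcd4, Sgk1, Tfeb and Ulk1 were called lower (7.69%, against 7.63% of all genes) and Eif4e and Pik3c2a higher (3.85%, against 3.82%).

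Pdcd4, a translation inhibitor that S6 kinase marks for breakdown, had 109 RPKM (105 to 112) in dormant blastocysts, 114 RPKM (111 to 118) at 6 h and 25.2 RPKM (23.8 to 26.7) at 12 h. Tfeb, the lysosome regulator downstream of the folliculin and RagC/D axis, had 31.0, 29.2 and 7.74 RPKM, and Ulk1, the autophagy kinase that mTORC1 and AMPK phosphorylate, had 13.1, 10.2 and 3.03 RPKM. All 3 were high in the first 2 states and lowest at 12 h, at log2 differences from dormant of -2.07, -1.87 and -1.81. Sgk1, a kinase activated by mTORC2, had 53.5, 65.1 and 28.3 RPKM. Pik3c2a, a class II PI3K, had 39.4 RPKM (38.0 to 40.8), 43.2 RPKM (41.8 to 44.6) and 95.7 RPKM (93.8 to 97.6), and rose by 1.26 on the log2 scale at 12 h against dormant.

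By role, none of 12 tested genes of GATOR2, KICSTOR and the amino acid sensors, of 6 partners of the mTOR complexes, of 3 Rag and LAMTOR genes or of 5 LKB1 and AMPK genes was called at 12 h against dormant. The calls fell among the 10 PI3K and AKT genes (1 higher) and the 17 outputs and substrates (4 lower, Rps6 among them). Over all genes, 5.27% were called higher and 7.66% lower. The roles hold few genes and were listed with earlier results of these data known, so the placing of calls by role was not tested. Rps6 and Eif4e have many near-identical pseudogene copies, and with 41, 19 and 19 exon reads for Rps6 and 102, 75 and 240 for Eif4e their values are uncertain. The row found for Eif4ebp3 overlaps a neighbouring coding gene on the same strand and is uncertain too.

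**Figure D5:**
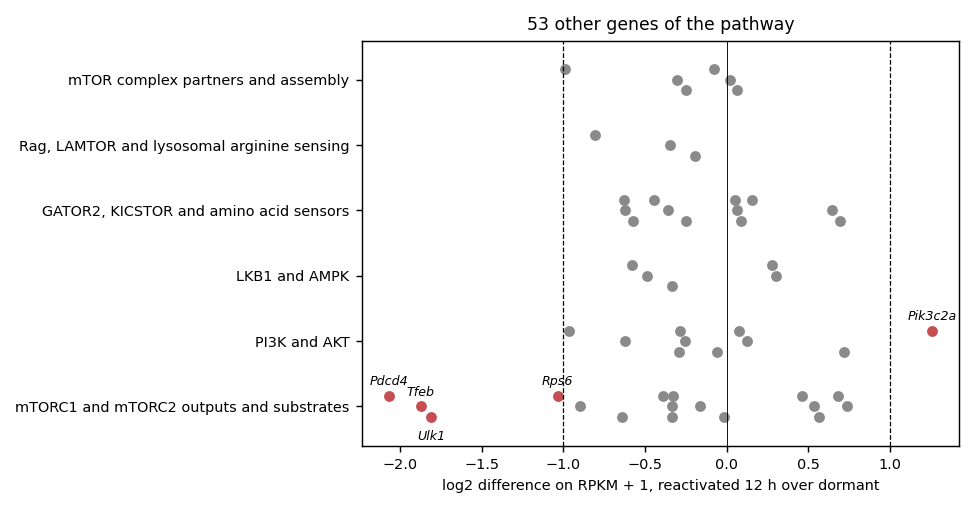
Log2 difference on RPKM + 1 of reactivated 12 h over dormant for 53 other genes of the pathway, by role; each point is a gene, red points passed the size rule and dashed lines mark 1 and -1. Pdcd4, Tfeb and Ulk1 lie near -2 among the outputs and substrates, Rps6 lies just past -1 and Pik3c2a at 1.26 is the gene on the right.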

How the data were processed

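Counts and RPKM were used as the authors deposited them in 1 table per library: per the file headers, raw counts of reads in exons, introns, exon junctions and on the opposite strand, and an RPKM per gene. Per the labels' protocols, ribosome-depleted RNA was sequenced on SOLiD as 50 bp single-end reads, and the submitters' processing notes name GRCm38. For aligner, counting tool and annotation: not given in the sources used here. Library totals of 14118723 (dormant), 15687239 (reactivating) and 18982195 (reactivated) reads follow from RPKM and exon counts, and with them all 39 members' RPKM matched their counts within 2% or 0.011 RPKM. With them, 3 reads in 1 kb of exon correspond to 0.212, 0.191 and 0.158 RPKM.

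With 1 library per state no test across replicates was made, and no SD or p-value is given. The size rule and exact 95% intervals (Python 3.11.15, scipy 1.17.1) were applied to the whole table and tried on simulated Poisson counts. Such counts hold counting error only, so they cannot show how the rule or the intervals behave with biological spread. Intron ratios were scaled to exon and intron reads, junction ratios to junction reads. Coordinates are from GENCODE M21 (GRCm38), promoters from RefSeq (GRCm38.p6). The members and lists were chosen with earlier results of these data known. Named are members called in a comparison, members whose intervals parted between reactivated and dormant, and the catalytic subunits. Other members and the pair comparison were added after their values were seen.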

Additional observations from a re-analysis of the deposited data

Results flagged for a closer look

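Opposite-strand reads of Prkab1 stood out in the counts that the comparisons do not use. They numbered 1 in dormant blastocysts, 1 at 6 h and 32 at 12 h, and scaled to all opposite-strand reads the ratio of reactivated over dormant was 19.0 (exact 95% interval 3.17 to 773). The median of this ratio over 38 members was 1.25. In GENCODE M21 the antisense gene Gm14508 lies on the opposite strand of Prkab1, with exons apart from those of Prkab1. Opposite-strand reads at Prkab1 remain few beside its 1164 exon reads in the reactivated library, and their source was not tested.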

How the results depend on the processing

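For the RPKM results, 8 alternatives were tried for each count and median, and 1 for the intron counts. Of the resulting 126 values, 111 stayed close to the value reported (counts within 1.5 times, medians within 0.1 and of the same sign) and 15 moved. Some of the 111 could not move. Dropping the minimum RPKM leaves the members' values unchanged, and also requiring intervals that do not overlap leaves the medians unchanged. The 111 thus overstate how stable the results were. With a pseudocount of 0.1, 1 member (Castor1) and 1 other pathway gene (Rps6) were lower at 6 h, Castor1 was the 1 member higher at 12 h against 6 h, and 5 members were lower there. Over all genes, 598 of 12126 were then lower at 6 h. At 12 h against 6 h, 756 of 12065 were higher and 1618 lower. With CPM in place of RPKM, 7 members and 8 other genes were lower at 12 h against dormant, and 6 and 7 at 12 h against 6 h; over all genes, 1388 of 12366 and 1462 of 12592 were then lower, against 922 of 12037 and 920 of 12065 on RPKM. Median-ratio scaling left 2 members lower at 12 h against dormant, Rragd and Fnip1, where 773 of 12090 genes were lower. It gave a members' median at 12 h against 6 h of -0.13, and scaling to reads outside mitochondrial and small RNA genes gave -0.18. With a minimum of 5 RPKM the median at 6 h was 0.006. Scaled to exon and intron reads, the intron interval at 6 h lay above 1 for 7 of 33 members (21.2%, against 22.8% of all genes). It lay below 1 for 6 (18.2%, against 16.3%). Over intron reads alone, 11 members were higher and 2 lower at 6 h, and 7 higher at 12 h against dormant. The shares of all genes over intron reads alone are not given here, so these counts do not show a trait of the members. The causes were not tested. No single value of a called member changed sign, and Rragd was called lower under each alternative in both 12 h comparisons. Junction reads alone, an alternative chosen after seeing the data, gave Rragd -2.48, Flcn -1.04, Fnip1 -1.71 and Eif4ebp2 -1.22 on the log2 scale at 12 h against dormant. Over all genes, median-ratio scaling moved the median at 12 h against 6 h to 0.02 from -0.13 as reported, and the share of called genes that were higher to 50.3% from 33.4%; upper-quartile and non-mitochondrial scaling gave 44.0% and 45%. No paired analysis was possible because each state has 1 library. With 44 to 90 exon reads Deptor, and with 56 to 148 Castor1, depth limits what can be seen in the lowest members.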

Other observations

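Exon and junction reads did not always give the same ratio for a member. At 12 h over dormant, the intervals of the exon and junction ratios did not overlap for 6 of 33 members with at least 20 junction reads in a library (18.2%, against 14.5% of 7096 genes). The 6 were Akt1s1, Akt2, Fnip2, Lamtor1, Pik3cb and Pik3r1. Akt2 had 65 junction reads in dormant blastocysts, 78 at 6 h and 25 at 12 h, a ratio of reactivated over dormant of 0.282 (0.170 to 0.454) beside an exon ratio of 0.918 (0.783 to 1.08). Lamtor1 had 44, 25 and 17 junction reads, a ratio of 0.283 (0.152 to 0.506) beside 0.695 (0.575 to 0.841). Pik3cb, with 251, 302 and 454, had a junction ratio of 1.33 (1.13 to 1.55) beside an exon ratio of 1.84 (1.72 to 1.97), so that both lay above 1. The part of particular exons or isoforms in these differences was not tested.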
